A study of Saccharomyces cerevisiae with 18 samples.

Results

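The change with age was compared between budding yeast lacking the stress transcription factor genes MSN2 and MSN4 and wild-type yeast. The quantity is a difference of differences: the aged minus young change in the double deletion, minus the same change in wild type, for every gene. It uses 12 of the 18 RNA sequencing libraries of the series, 3 from each of 4 groups. Wild type was strain CGY4.51, labelled MAT@, and the double deletion was CGY69.30, labelled MAT@ msn2::HphNT1 msn4::NatNT2. All cells grew in biotin-free synthetic medium with 2% glucose, 2% MMP and DAPA at pH 4.5, as the labels write it. Young cells came from exponential cultures. Aged cells were mother cells with biotin on their surface, bound to magnetic beads and held for 24 h in a Ministat Aging Device, in which flowing medium carries daughters away. Each genotype is 1 strain. The labels do not state whether the 3 replicates were grown apart, and p-values therefore rest on a spread between libraries that may be technical. The age contrast also covers growth mode, bead labelling and the selection of mothers, which cannot be told apart from age. In bulk RNA, fewer cells of a kind and less of a transcript per cell cannot be told apart either.

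Msn2 and Msn4 are related zinc finger proteins that bind the stress response element, a short motif in the promoters of general stress genes. When protein kinase A activity is high, as in cells growing on plentiful glucose, both factors are kept out of the nucleus. When it falls, or under many stresses, they enter and raise genes for trehalose and glycogen metabolism, small heat shock proteins and antioxidant enzymes. Genes for ribosomes and for ribosome assembly are known to move the other way in the same stress response.

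A difference of age effects can arise in several ways, because it equals the aged difference between the strains minus the young difference. If the strains differ when young and not when aged, the young level makes it. If they differ only when aged, the aged level makes it. If they differ at both ages, the gap between strains may change sign, widen or narrow. Every gene that passed was put into 1 of these classes by whether the young difference and the aged difference each passed at an adjusted p under 0.05. A difference that did not pass is not shown to be absent. The aged difference rests on the libraries with the smallest totals, so counting error can keep a gene from passing it.

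The deleted genes were checked first. MSN2 (YMR037C, chromosome XIII, 344403 to 346517, minus strand) had 41, 39.3 and 45 CPM, the count scaled to library size, in the young wild-type libraries and 4.48, 3.63 and 2.6 in the young double deletion. Aged wild type had 31.7, 33.2 and 35.4 CPM and the aged double deletion 3.98, 4.99 and 3.88. MSN2 was low in all 6 double deletion libraries. MSN4 (YKL062W, chromosome XI, 323228 to 325120, plus strand) had 45.1, 43.1 and 39.6 CPM in young wild type and 23.9, 22.2 and 18.1 in the young double deletion. It had 52.8, 48.8 and 53 CPM in aged wild type and 14.5, 12 and 13.6 in the aged double deletion. The groups did not overlap, yet MSN4 reads were well above 0 in the double deletion, and a count per gene does not show which part of the gene they cover. With age MSN4 rose in wild type (log2 0.27 ± 0.0945) and fell in the double deletion (log2 -0.66 ± 0.123), a difference of -0.93 ± 0.155 (adjusted p = 0.000344).

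Library totals were 27698098 to 41649952 counts in the 9 libraries that were not aged double deletion, and 4078400 to 7136185 in the 3 that were, so counting error is largest in the aged double deletion. With all libraries thinned to the smallest total, 628 genes were called in place of 1104, and 581 of them were among the 1104. Thinning ended the calls of FET5, PHO86, ARG8, ECM22 and ERG3, which are described last, and of TSL1, HXK1, HXT6, HXT7, ALD3, TDH1, YAK1, GIS1, SPL2, RNR2, MFA2, MRPL13, RDN37-1 and YJL015C. The 4 alpha-cell marker genes summed to 3613 to 6081 CPM over the 12 libraries, and STE3, the receptor for a-factor, was called lower (-0.48 ± 0.121). The 7 a-cell markers summed to 55.9 to 58.1 CPM in the aged double deletion and to 32.9 to 43.5 CPM in the other 9 libraries. Of the a-cell markers, the pheromone genes MFA1 and MFA2 were called higher, but the MFA2 call did not hold without any 1 of 7 libraries (aged wild-type replicate 1 or 3, young wild-type replicate 2, aged double deletion replicate 1 or 3, young double deletion replicate 2 or 3), with adjusted p from 0.0579 to 0.104. The 11 daughter-cell markers summed to 1278 to 1351 CPM in young wild type and 1469 to 1633 in aged wild type. In the double deletion their sums were 1916 to 2218 CPM young and 2044 to 2404 aged. Of the 11, 0 were called higher in the difference of age effects and 2 were called lower, the daughter-specific wall enzymes SCW11 and DSE4. The SCW11 call was lost without aged wild-type replicate 3, aged double deletion replicate 3 or young double deletion replicate 1 (adjusted p from 0.0534 to 0.0597). The part of this shift in the results below was not tested.

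Of 6833 genes tested with edgeR's quasi-likelihood test, 1104 (16.2%) had an age effect that differed between double deletion and wild type at a Benjamini-Hochberg adjusted p under 0.05. In 490 (7.17%) the age effect was higher in the double deletion, meaning a larger rise or a smaller fall, and in 614 (8.99%) it was lower. At least a 2-fold difference was found for 142 (2.08%), 59 higher (0.863%) and 83 lower (1.21%). The median over all tested genes was -0.02 on the log2 scale, and the called genes had a median size of 0.56. The split by direction depends on the scaling: scaling by library totals instead of TMM gave 239 higher and 684 lower, so that 25.9% of the calls were higher against 44.4%. With this scaling the calls of NSR1, HXT7, TDH1, HHO1, RNR2, ARG8 and ERG3 were lost (adjusted p from 0.0521 to 0.158).

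The aged level alone made the difference in 454 of the 1104 genes (41.1%, or 6.64% of all tested), 241 higher and 213 lower. For 340 genes (30.8%, or 4.98% of all tested) it was the young level alone, 137 higher and 203 lower. Both differences passed with opposite signs in 105 genes (9.51%, or 1.54% of all tested), 61 higher and 44 lower, and with the same sign in 174 (15.8%, or 2.55% of all tested). In this last class the gap between strains was wider in aged cells for 141 genes, of which 117 were lower, and narrower for 33, of which 15 were higher. Neither difference passed alone for the other 31 (0.454% of all tested). Genes of the same-sign class made up 30.3% of the 142 differences of at least 2-fold, and 34 of these 43 genes had a gap already present in young cells that widened downwards. As background for these classes, the young difference between the strains passed for 2579 genes (37.7%), 17.9% higher and 19.9% lower in the double deletion, and the aged difference for 2478 (36.3%), 16.6% higher and 19.7% lower.

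**Figure D1:**
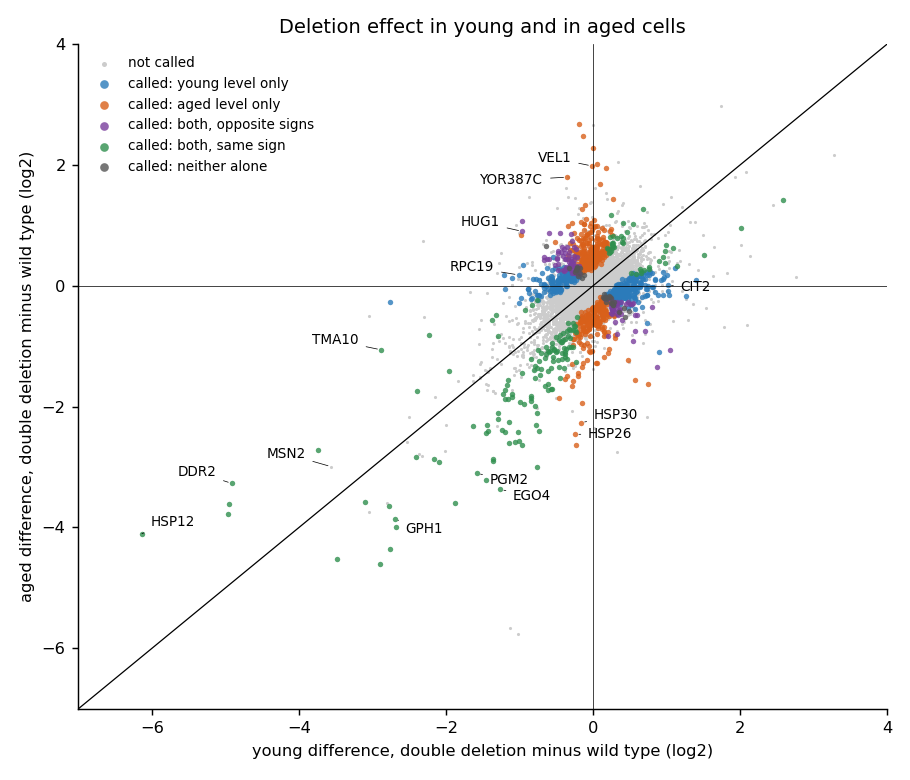
Each point is a gene, with the young difference between double deletion and wild type on the horizontal axis and the aged difference on the vertical axis, both in log2 units. Colours give the class of called genes, and the difference of age effects is the height above or below the diagonal. Orange points lie along the vertical axis, blue along the horizontal axis, and green points at lower left hold the stress genes. RRT15 and tG(GCC)O1 lie outside the axes.

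Read from the side of aging, 334 of the called genes changed with age in both strains in the same direction, 298 passed in wild type and not in the double deletion, 349 passed in the double deletion and not in wild type, and 8 passed in neither. Another 115 passed in both strains with opposite signs. As background, the age effect passed for 4365 genes (63.9%) in wild type, 33.3% higher and 30.6% lower, and for 4179 (61.2%) in the double deletion, 31.2% higher and 29.9% lower. Where both strains rose, the rise was larger in the double deletion for 96 genes and smaller for 102. Where both fell, the fall was larger in the double deletion for 104 and smaller for 32.

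Trehalose and glycogen genes had a lower age effect almost throughout. Of 19 tested members, 15 had a lower age effect in the double deletion and 0 a higher one, against 8.99% and 7.17% of all genes. The median of the 19 was -0.69, with a median young difference of -0.77 and a median aged difference of -1.56. In 11 of the 15 an existing gap widened, and in 4 only the aged level differed. The median age effect of the members was 1.13 in wild type and 0.39 in the double deletion. PGM2, the phosphoglucomutase that links glucose 6-phosphate to storage carbohydrates (YMR105C, chromosome XIII, 475897 to 477606, minus strand), had 52.2, 60.7 and 48 CPM in young wild type and 125, 129 and 129 in aged wild type. In the double deletion it had 19.1, 17.1 and 17.6 CPM young and 14.6, 14.8 and 15 aged. Wild type rose with age, the double deletion fell slightly, and the strains did not overlap at either age. The difference of age effects was -1.53 ± 0.129 (adjusted p = 1.74e-07), made of a young difference of -1.58 ± 0.0842 and an aged one of -3.10 ± 0.0976.

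TPS2, which removes the phosphate in the last step of trehalose synthesis (YDR074W, chromosome IV, 593893 to 596583, plus strand), went from 97.8 ± 6.82 to 214 ± 12.1 CPM (mean ± SD, n = 3) in wild type and from 36.3 ± 2.42 to 40.8 ± 4.02 in the double deletion, a difference of -0.97 ± 0.122. TPS1, the trehalose 6-phosphate synthase, differed by -0.81 ± 0.21 and TSL1, a regulatory subunit of the same complex, by -0.49 ± 0.128. TSL1 had by far the larger gap already in young cells, at -3.10 ± 0.0866, against -1.29 ± 0.148 for TPS1. The TSL1 call was lost without aged double deletion replicate 3 (log2 -0.42, adjusted p = 0.0522). GPH1, glycogen phosphorylase (YPR160W, chromosome XVI, 861306 to 864014, plus strand), rose in both strains, from 36.2 ± 2.26 to 219 ± 11 CPM in wild type and from 5.59 ± 0.582 to 15.1 ± 1.05 in the double deletion. Its young gap of -2.70 ± 0.115 became -3.86 ± 0.119. GLC3, the glycogen branching enzyme, differed by -1.01 ± 0.138.

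Small heat shock and other stress proteins divided in an unequal way. Of 35 tested members 16 were lower and 6 higher, with a median of -0.48, a median young difference of -1.24 and a median aged difference of -1.84. The young level was lower in the double deletion for 28 members and the aged level for 33, against 19.9% and 19.7% of all genes. In 12 of the 22 called genes the gap widened, in 6 it narrowed, and in 4 only the aged level differed. After thinning to the smallest total the list held 10 lower and 7 higher. EGO4, a small subunit of a vacuolar complex that signals to the growth kinase TORC1 (YNR034W-A, chromosome XIV, 692561 to 692857, plus strand), had the lowest value of the widening class after SIP18. EGO4 is not a member of this list. It had 56.6, 95.9 and 67 CPM in young wild type and 185, 215 and 162 in aged wild type, but 31.8, 30.9 and 28.9 young and 21.8, 17.6 and 14.8 aged in the double deletion. The strains did not overlap at either age and moved apart. Wild type rose by 1.36 ± 0.162 while the double deletion fell (-0.75 ± 0.199), a difference of -2.11 ± 0.255 (adjusted p = 1.49e-05). SIP18, a desiccation protein (YMR175W, chromosome XIII, 611016 to 611255, plus strand), had 4.68, 6.21 and 5.94 CPM young and 42.7, 45 and 34.7 aged in wild type. The double deletion had 3.89, 3.12 and 2.95 CPM young and 5.15, 6.39 and 4.23 aged, and the aged wild-type libraries stood alone. Wild type rose by 2.86 ± 0.173 and the double deletion by 0.63 ± 0.258, a difference of -2.23 ± 0.301.

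YMR090W, an open reading frame of unknown role, differed by -1.67 ± 0.112, with 1.94 ± 0.0731 in wild type and 0.27 ± 0.0872 in the double deletion. HSP31, a chaperone and glyoxalase of the DJ-1 family, differed by -1.11 ± 0.098 and CTT1, cytosolic catalase, by -0.99 ± 0.209. CTT1 rose with age in wild type (0.99 ± 0.122), and its change in the double deletion was 0.00 ± 0.174. YFR052C-A and YER067C-A were also among the lowest of this class, at -1.77 ± 0.273 and -1.71 ± 0.305. The annotation used gives neither a position, and overlapping reading frames may share their reads.

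A smaller set went the other way: a very large young gap that narrowed. HSP12, a membrane-stabilising stress protein (YFL014W, chromosome VI, 107256 to 107585, plus strand), had 606, 786 and 698 CPM in young wild type against 9.13, 9.66 and 10.9 in the young double deletion. It had 1691, 1738 and 1537 CPM in aged wild type and 96.2, 92.1 and 101 in the aged double deletion. The strains were far apart at both ages, but the double deletion rose by 3.28 ± 0.161 against 1.25 ± 0.139 in wild type. The gap thus went from -6.13 ± 0.176 to -4.10 ± 0.158, a difference of 2.04 ± 0.207 (adjusted p = 1.92e-06). DDR2, another small stress protein (YOL052C-A, chromosome XV, 231570 to 231755, minus strand), had 23.2, 31 and 26.8 CPM in young wild type and only 1.4, 0.445 and 0.913 in the young double deletion, then 51, 55 and 47.2 in aged wild type and 5.15, 6.39 and 4.7 in the aged double deletion. DDR2 was nearly absent from young double deletion libraries and low in aged ones. Its gap went from -4.92 ± 0.198 to -3.27 ± 0.183, a difference of 1.65 ± 0.307.

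TMA10, a ribosome-associated protein (YLR327C, chromosome XII, 783127 to 783387, minus strand), had 102, 166 and 114 CPM in young wild type against 19.4, 19 and 13.4 in the young double deletion. Aged libraries had 209.8, 234 and 190.0 CPM in wild type and 107, 100.5 and 96.8 in the double deletion, and its gap shrank from -2.88 ± 0.174 to -1.06 ± 0.163. FMP48, a mitochondrial kinase-like protein, differed by 1.43 ± 0.217, and RTC3, a stress protein of unclear role, by 1.34 ± 0.209. HXK1, a hexokinase isoform made when glucose is low, differed by 1.18 ± 0.23. All of these 6 genes rose with age in both strains. HSP42, a small heat shock protein, kept a gap of like size. It was -1.54 ± 0.0968 young and -1.52 ± 0.0962 aged, with a difference of 0.02 ± 0.134 (adjusted p = 0.936).

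The classes differed in how many of their promoters hold the element bound by Msn2 and Msn4. Promoter windows of HSP12, DDR2, EGO4, HSP26, TSA2 and RPC19, some of them described further on, are therefore printed below. Each is 300 bases, from 350 to 51 before the start codon, 5′ to 3′ on the strand of the gene, read from the R64 genome. HSP12 and DDR2 stand for the narrowing gap and EGO4 for the widening gap. HSP26 and TSA2 stand for a lower level in the double deletion that passed in aged cells and not in young ones. Capitals mark the stress response element AGGGG on either strand, which reads CCCCT when it lies on the other strand, and in RPC19 the PAC element GATGAG.
HSP12 (chrVI:106906-107205, plus strand): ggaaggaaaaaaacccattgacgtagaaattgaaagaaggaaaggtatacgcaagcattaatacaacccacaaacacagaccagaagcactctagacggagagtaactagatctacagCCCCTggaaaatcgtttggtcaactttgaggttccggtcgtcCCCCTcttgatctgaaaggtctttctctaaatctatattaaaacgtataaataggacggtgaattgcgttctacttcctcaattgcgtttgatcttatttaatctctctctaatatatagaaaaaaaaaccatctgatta
DDR2 (chrXV:231806-232105, minus strand): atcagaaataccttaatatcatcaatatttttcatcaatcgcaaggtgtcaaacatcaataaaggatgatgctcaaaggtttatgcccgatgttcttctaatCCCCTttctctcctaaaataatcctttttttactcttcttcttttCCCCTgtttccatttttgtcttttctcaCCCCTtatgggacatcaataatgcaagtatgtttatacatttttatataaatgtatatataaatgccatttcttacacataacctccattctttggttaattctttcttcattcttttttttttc
EGO4 (chrXIV:692211-692510, plus strand): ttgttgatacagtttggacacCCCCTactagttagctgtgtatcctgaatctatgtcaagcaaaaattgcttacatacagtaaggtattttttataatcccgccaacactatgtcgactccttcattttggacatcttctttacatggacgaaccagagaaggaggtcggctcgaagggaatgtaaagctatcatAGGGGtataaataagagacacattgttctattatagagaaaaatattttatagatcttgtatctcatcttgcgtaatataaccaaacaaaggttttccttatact
HSP26 (chrII:381680-381979, plus strand): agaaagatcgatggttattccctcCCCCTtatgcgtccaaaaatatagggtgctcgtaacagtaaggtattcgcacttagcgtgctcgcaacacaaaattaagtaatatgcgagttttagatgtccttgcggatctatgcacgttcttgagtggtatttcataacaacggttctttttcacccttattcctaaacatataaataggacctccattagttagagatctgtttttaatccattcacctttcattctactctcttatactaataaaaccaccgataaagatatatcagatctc
TSA2 (chrIV:1365713-1366012, minus strand): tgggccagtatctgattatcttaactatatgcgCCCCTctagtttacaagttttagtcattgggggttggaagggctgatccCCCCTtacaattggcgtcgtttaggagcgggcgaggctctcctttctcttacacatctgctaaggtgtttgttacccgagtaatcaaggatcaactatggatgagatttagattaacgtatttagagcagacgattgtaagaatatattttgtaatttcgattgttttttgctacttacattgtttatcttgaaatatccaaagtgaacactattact
RPC19 (chrXIV:412421-412720, plus strand): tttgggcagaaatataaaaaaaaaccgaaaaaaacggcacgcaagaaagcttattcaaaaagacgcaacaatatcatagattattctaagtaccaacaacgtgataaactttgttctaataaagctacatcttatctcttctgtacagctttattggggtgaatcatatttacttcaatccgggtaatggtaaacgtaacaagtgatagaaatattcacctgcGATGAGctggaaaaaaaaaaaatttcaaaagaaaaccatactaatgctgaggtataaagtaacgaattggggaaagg
HSP12 has 2 matches, DDR2 has 3, EGO4 and TSA2 have 2 each and HSP26 has 1.

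Levels by library show these patterns side by side for 9 genes.

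**Figure D2:**
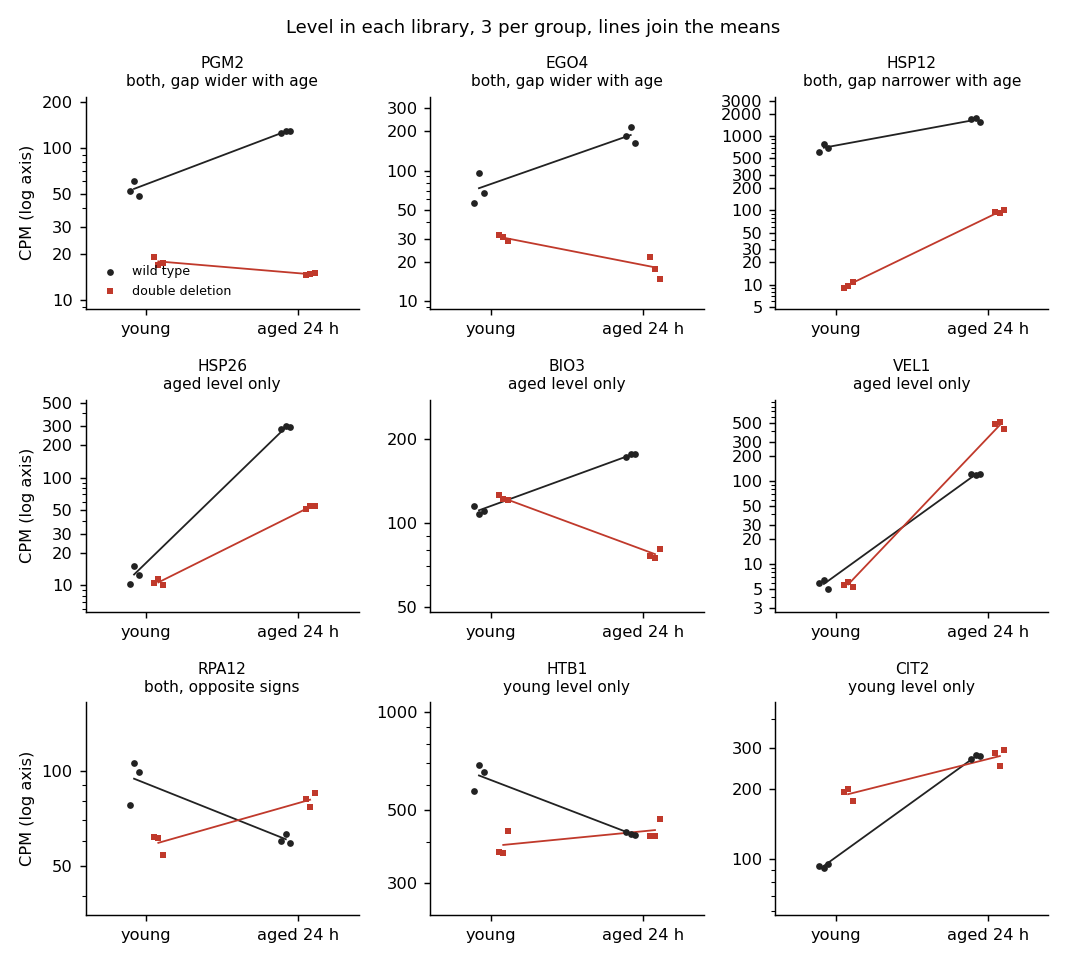
Panels give the level of 9 genes in CPM on a log axis, for young and 24 h aged cells. Black circles are the 3 wild-type libraries, red squares the 3 double deletion libraries, and lines join the means. The lines for PGM2 and EGO4 spread apart, those for HSP12 approach each other, those for HSP26, BIO3 and VEL1 start close and end apart, those for RPA12 cross, and those for HTB1 and CIT2 start apart and end close.

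For several stress genes the young difference did not pass and the rise with age was smaller in the double deletion. HSP26, a small heat shock protein that binds unfolded proteins (YBR072W, chromosome II, 382030 to 382674, plus strand), had 10.3, 15.1 and 12.4 CPM in young wild type and 10.5, 11.4 and 10.1 in the young double deletion. Aged wild type had 287, 300.5 and 297 CPM and the aged double deletion 51.6, 55.1 and 54.3. Young libraries overlapped and aged ones did not. The rise was 4.55 ± 0.114 in wild type and 2.33 ± 0.114 in the double deletion, a difference of -2.22 ± 0.153 (adjusted p = 1.03e-08). HSP30, a regulator of the plasma membrane proton pump (YCR021C, chromosome III, 156109 to 157107, minus strand), overlapped in young libraries, with 11.9, 10.5 and 11.3 CPM in wild type and 9.38, 9.66 and 11 in the double deletion. Its aged levels were 97.2, 92.2 and 87.4 CPM against 21.1, 16.8 and 19, a difference of age effects of -2.10 ± 0.128.

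GND2, the minor isoform of 6-phosphogluconate dehydrogenase (YGR256W, chromosome VII, 1004624 to 1006102, plus strand), had 40.4, 36.4 and 35.9 CPM in aged wild type and 6.68, 6.99 and 4.82 in the aged double deletion, while all young libraries lay between 2.98 and 4.10. It differed by -2.40 ± 0.197. TSA2, a peroxiredoxin (YDR453C, chromosome IV, 1365072 to 1365662, minus strand), rose with age in wild type (0.75 ± 0.143) and fell in the double deletion (-0.62 ± 0.181), with overlapping young libraries. TDA6, a putative protein of unknown role, differed by -1.33 ± 0.178. HXT4, a glucose transporter, differed by -1.31 ± 0.165. HXT6 (-2.37 ± 0.436) and HXT7 (0.67 ± 0.191) are 99.8% identical in sequence, so their opposite values cannot be separated from the way reads were shared between them.

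Among 21 genes of stress-linked sugar metabolism 13 were lower and 1, HXK1, was higher, with a median of -0.47. After thinning 7 were lower. ALD3, an aldehyde dehydrogenase, differed by -1.40 ± 0.235. ALD6, the main acetaldehyde dehydrogenase, was lower through the young level: it was higher in the young double deletion (0.64 ± 0.081) while the aged difference of 0.04 ± 0.0808 did not pass. Of 28 redox defence genes 9 were lower and 0 higher, with a median of -0.34. GPX1, a glutathione peroxidase (YKL026C, chromosome XI, 389380 to 389883, minus strand), rose with age in wild type from 18.9 ± 2.82 to 35.2 ± 1.74 CPM and fell in the double deletion from 11.3 ± 2.5 to 6.68 ± 1.25, a difference of -1.66 ± 0.224. PRX1, the mitochondrial peroxiredoxin, differed by -0.77 ± 0.131. GSH1, the first enzyme of glutathione synthesis, was higher than wild type in the young double deletion (0.53 ± 0.0881) and lower in the aged (-0.30 ± 0.0967).

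Of 29 chaperone genes 11 were lower and 0 higher, with a median of -0.28. HSP104, the disaggregase that pulls proteins out of aggregates (YLL026W, chromosome XII, 88623 to 91349, plus strand), had 274, 258 and 238 CPM in young wild type and 256, 247 and 220.5 in the young double deletion, with overlap. It had 413, 419 and 427 CPM in aged wild type and 182, 176 and 178 in the aged double deletion. HSP104 rose with age in one strain and fell in the other, a difference of -1.14 ± 0.106 (adjusted p = 5.20e-07). HSP78, its mitochondrial relative, differed by -0.94 ± 0.11 and moved in the same pair of directions. SSA1, a cytosolic Hsp70, differed by -0.80 ± 0.124, made by the aged level, but it is 96.4% identical to SSA2 and shared reads are possible. SSA4, the stress-induced Hsp70, rose in both strains, by 2.25 ± 0.0732 in wild type and 1.58 ± 0.0732 in the double deletion.

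Proteasome genes were called in 1 direction only, by small amounts. Of 33 members 14 were lower and 0 higher, with a median of -0.36. In 11 of the 14 the aged level alone made the difference. The median young difference was -0.04 and the median aged difference -0.35. RPN11, the lid subunit that removes ubiquitin chains (YFR004W, chromosome VI, 153393 to 154313, plus strand), had 338, 364 and 321 CPM in aged wild type and 210.2, 183 and 231 in the aged double deletion, a difference of -0.65 ± 0.131. PRE2, a catalytic core subunit, differed by -0.44 ± 0.105 and RPN6, a lid subunit, by -0.54 ± 0.106. The count rested on single libraries: it was 8 without aged wild-type replicate 2 or 3, and 9 without young wild-type replicate 3, without aged double deletion replicate 1, after thinning or with only the 12 libraries fitted. ECM29, which tethers the parts of the proteasome (YHL030W, chromosome VIII, 40084 to 45690, plus strand), changed sides. It had 100.3, 92.7 and 99.2 CPM in young wild type and 184, 172 and 153 in the young double deletion, but 102, 99.2 and 104 against 83.8, 75.9 and 79.4 in aged cells, a difference of -1.15 ± 0.103.

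All 6 biotin genes were lower, with a median of -0.90, a median young difference of 0.08 and a median aged difference of -1.03. BIO3, an enzyme of biotin synthesis (YNR058W, chromosome XIV, 734291 to 735733, plus strand), had 115, 108 and 109.9 CPM in young wild type and 172, 176 and 177 in aged wild type. The double deletion had 126, 122 and 121 young and 76, 75.1 and 80.8 aged. Wild type rose and the double deletion fell, with overlap in neither the young nor the aged libraries, a difference of -1.32 ± 0.0961 (adjusted p = 1.92e-08). BIO5, the transporter for biotin precursors, differed by -1.26 ± 0.174, BIO4, dethiobiotin synthetase, by -0.74 ± 0.117, and VHT1, the biotin transporter, by -1.05 ± 0.166. VHT1 was higher than wild type in the young double deletion (0.57 ± 0.117) and lower in the aged (-0.48 ± 0.118).

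Upward differences made by the aged level included genes of the zinc response. Of 13 members 4 were higher and 3 lower, with a median of 0.04 that was -0.04 with library totals, and after thinning 1 was lower. VEL1, a gene of unknown role that rises strongly when zinc is short (YGL258W, chromosome VII, 11110 to 11730, plus strand), had 5.88, 6.45 and 5.01 CPM in young wild type and 5.58, 6.17 and 5.38 in the young double deletion. It had 123, 119.8 and 122 CPM in aged wild type and 495, 514 and 430.0 in the aged double deletion. It rose in both strains, by 4.39 ± 0.112 in wild type and 6.39 ± 0.119 in the double deletion, a difference of 2.00 ± 0.152 (adjusted p = 3.60e-08). YOR387C (chromosome XV, 1069621 to 1070241, minus strand), 92.4% identical to VEL1, differed by 2.15 ± 0.197, and reads may have been shared between them. ZPS1, a cell wall protein of zinc-limited cells (YOL154W, chromosome XV, 34658 to 35407, plus strand), had 2251, 2305 and 2142 CPM in aged wild type and 5597, 4709 and 5783 in the aged double deletion, a difference of 1.42 ± 0.171. ZRT1, the high-affinity zinc transporter, had a difference of 0.27 ± 0.138 that did not pass (adjusted p = 0.195), with a rise of 6.33 ± 0.119 in wild type and 6.60 ± 0.119 in the double deletion. ZRC1, a vacuolar zinc transporter, was the fourth called higher, and the transporters ZRT2 and FET4 and the membrane protein IZH4 were called lower.

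Ribosome biogenesis genes held the most upward calls of the lists. Of 97 members 46 were higher and 0 lower, with a median of 0.36, a median young difference of 0.01 and a median aged difference of 0.43. With library totals 31 were higher, and after thinning 39. For 35 of the 46 the aged level alone made the difference, for 10 the strains changed places, and for 1 the gap widened. The aged level was higher in the double deletion for 79 of the 97 and lower for 3, against 16.6% and 19.7% of all genes. UTP30, which takes part in small subunit assembly (YKR060W, chromosome XI, 556518 to 557342, plus strand), had 50.2, 47.7 and 51.1 CPM in young wild type and 37.4, 37.2 and 36.7 in aged wild type. In the double deletion it had 41.1, 43.2 and 42.9 young and 58.6, 56.3 and 55.5 aged, so it fell in wild type and rose in the double deletion, a difference of 0.84 ± 0.0892. RPA12, a subunit of RNA polymerase I (YJR063W, chromosome X, 555195 to 555572, plus strand), had 77.6, 106 and 99.2 CPM in young wild type and 59.9, 62.8 and 59.1 in aged wild type, against 61.8, 61.2 and 54.2 young and 81, 76.7 and 84.8 aged in the double deletion. The order of the strains was reversed with no overlap at either age, and the difference was 1.09 ± 0.13. DBP8, an RNA helicase of small subunit assembly, differed by 0.84 ± 0.101 and NSR1, a nucleolin-like protein, by 0.38 ± 0.102.

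Features of the ribosomal DNA were also called higher. Of 14 tested features 6 were higher and 0 lower, all through the aged level, with a median of 0.79. After thinning 2 were higher. Their summed level was 18.1 to 27.6 CPM in young wild type and 18.6 to 25.7 in the young double deletion, but 550.4 to 692.7 in aged wild type and 3043 to 4147 in the aged double deletion. Most of the last sum was RRT15, a short reading frame (YLR162W-A, chromosome XII, 490406 to 490594, plus strand). It stood at 3103, 3588 and 2539 CPM in the aged double deletion and between 0.703 and 1.66 in the other 9 libraries. Its difference was 11.97 ± 0.508, and against the msn2 deletion the same comparison gave 12.19 ± 0.65. RDN18-1 (2.86 ± 0.355) and RDN37-1 (1.77 ± 0.291) are repeated genes among which reads may have been split, and libraries were made from polyA RNA, so these values do not give the level of ribosomal RNA.

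Where the young level alone made the difference, the strains differed in exponential growth and the aged difference did not pass. Among cytosolic ribosomal protein genes, of 137 members 24 were higher and 0 lower, and in 20 of the 24 only the young difference passed. The young level was lower in the double deletion for 81 members and higher for 2, against 19.9% and 17.9% of all genes. Their median was 0.21, with a median young difference of -0.33 and a median aged difference of -0.09. With library totals 14 were higher. RPL20A, a protein of the large subunit (YMR242C, chromosome XIII, 753225 to 754220, minus strand), had 1182, 1674 and 1511 CPM in young wild type and 930.3, 889 and 935 in the young double deletion. Aged libraries overlapped, with 746, 824 and 813 CPM in wild type and 786, 801 and 846 in the double deletion. Its difference was 0.70 ± 0.14. RPL31A differed by 0.64 ± 0.131 and RPP2B, a stalk protein, by 0.57 ± 0.11. RPL3 did not pass, at 0.16 ± 0.129 (adjusted p = 0.43). Many of these genes have a near-identical paralog, so single values are less certain than the count. Of 67 mitochondrial ribosomal protein genes 0 were higher and 1, MRPL13, was lower, with a median of -0.10.

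Most histone genes were called higher as well. Of 10 members 7 were higher and 0 lower, 5 through the young level and 2 with a change of sign, and their median was 0.54. All 10 were lower in the young double deletion, against 19.9% of all genes. HTB1, histone H2B (YDR224C, chromosome IV, 914317 to 914712, minus strand), had 572, 691 and 655 CPM in young wild type and 372, 371 and 434 in the young double deletion. Aged libraries overlapped, at 429, 425 and 421 and 417, 418 and 471 CPM, and the difference was 0.74 ± 0.12 (adjusted p = 0.000279). HHT1, histone H3, differed by 0.69 ± 0.157 and HHO1, the linker histone, by 0.67 ± 0.145. The count was 4 with library totals, 4 without aged wild-type replicate 3 and 4 without aged double deletion replicate 3. Core histone pairs are up to 97.4% identical.

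RPC19, a subunit shared by RNA polymerases I and III (YNL113W, chromosome XIV, 412771 to 413199, plus strand), also differed through the young level. It had 137, 151 and 188 CPM in young wild type and 77, 82 and 76.2 in the young double deletion, then 92.2, 94.4 and 79 in aged wild type and 102, 84.5 and 113 in the aged double deletion. Young libraries did not overlap and aged ones did. RPC19 fell with age in wild type (-0.84 ± 0.119) and rose in the double deletion (0.35 ± 0.124), a difference of 1.19 ± 0.172. YNL114C, a dubious reading frame without a position in the annotation, had like values (1.24 ± 0.161) and is known to overlap RPC19, so the pair may be 1 signal. NRM1, a repressor of late G1 genes, differed by 0.91 ± 0.169 and BFA1, a brake on exit from mitosis, by 0.90 ± 0.176. Their aged differences of 0.29 ± 0.126 and 0.21 ± 0.128 did not pass, although the aged libraries of BFA1 did not overlap.

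Genes called lower through the young level started higher in the double deletion. CIT2, the peroxisomal citrate synthase and a marker of retrograde signalling (YCR005C, chromosome III, 120946 to 122328, minus strand), had 93.7, 92.1 and 95.9 CPM in young wild type and 194, 199 and 177 in the young double deletion. Aged libraries overlapped, with 269.6, 279.7 and 277 CPM in wild type and 284, 251 and 295 in the double deletion. The young gap was 1.02 ± 0.08, the aged gap 0.01 ± 0.0793 and the difference -1.01 ± 0.112. GLN1, glutamine synthetase (YPR035W, chromosome XVI, 642208 to 643320, plus strand), went from 184 ± 5.77 to 485 ± 14.3 CPM in wild type and from 322 ± 20.4 to 476 ± 21.1 in the double deletion. OLE1, the fatty acid desaturase, differed by -0.87 ± 0.154, and TIP1, a cell wall mannoprotein, by -0.83 ± 0.135, with young gaps of 0.73 ± 0.109 and 0.92 ± 0.0955. COS8, of a subtelomeric family, differed by -1.18 ± 0.139 and SIC1, an inhibitor of the cell cycle kinase, by -0.66 ± 0.111. YLR342W-A (-1.29 ± 0.214) and the Ty element feature YDR261C-D (-1.12 ± 0.209) were also low. Ty elements are repeated in the genome, so reads of the latter may belong to other copies.

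Genes whose strains changed places lay on both sides. HUG1, an inhibitor of ribonucleotide reductase raised by DNA damage (YML058W-A, chromosome XIII, 158760 to 158966, plus strand), had 16.3, 28.6 and 24.8 CPM in young wild type and 12.6, 11.5 and 11.6 in the young double deletion, then 23.7, 28.7 and 22.3 in aged wild type and 44.4, 47.3 and 47.9 in the aged double deletion. The double deletion was the lower strain in young cells and the higher in aged cells, without overlap. The double deletion rose by 1.97 ± 0.19 and the change in wild type was 0.10 ± 0.171, a difference of 1.87 ± 0.255 (adjusted p = 5.03e-05). Of 16 DNA damage genes 2 were higher, HUG1 and RNR2 (12.5%, against 7.17% of all genes), and 1, MAG1, was lower (6.25%, against 8.99%). YDL062W (1.47 ± 0.198), YGR035C (1.34 ± 0.244) and GFD2 (1.16 ± 0.122) were further genes called higher. YML131W (-1.46 ± 0.133), YJL015C (-1.33 ± 0.193) and AAD10 (-1.12 ± 0.15) were called lower, as was ECM29. The positions of YDL062W and YJL015C are not in the annotation used. MFA1, the gene of the a-factor pheromone, changed places too, at 2.03 ± 0.378, from no more than 1.49 CPM in any young library to 7.05 CPM at most in an aged one.

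Of 14 genes of the Ras and protein kinase A pathway, which restrains Msn2 and Msn4, 4 were lower (28.6%) and 1 higher (7.14%). Among all genes 8.99% were lower and 7.17% higher. After thinning 3 of the 14 were lower and 2 higher. IRA2 (-0.82 ± 0.113) and IRA1 (-0.62 ± 0.118), which switch Ras off, had a lower age effect, and RAS1 a higher one (0.65 ± 0.0953). IRA1 was called through the young level. It was higher in the young double deletion (0.56 ± 0.0824), and the aged difference of -0.05 ± 0.0848 did not pass. In IRA2 the young difference was 0.34 ± 0.0782 and the aged one -0.48 ± 0.0809. In RAS1 they were -0.39 ± 0.0665 and 0.26 ± 0.0683. Of 12 stress regulators 5 were lower (41.7%, against 8.99% of all genes) and 0 higher. After thinning only 1 was lower, MSN4, which is itself deleted in the double deletion. Also among the 5 were YAK1, a kinase that opposes growth (-0.78 ± 0.153), and GIS1, a regulator of post-diauxic genes (-0.58 ± 0.13). Of 15 glucose sensing genes 2 were higher (13.3%, against 7.17% of all genes), the glucose repressors MIG2 (0.77 ± 0.162) and MIG3 (1.03 ± 0.17). In this list 1 gene was lower (6.67%, against 8.99%), SNF1, the kinase active when glucose is short (-0.37 ± 0.107). The SNF1 call was lost with only the 12 libraries fitted, without aged wild-type replicate 3 and without aged double deletion replicate 1 (adjusted p from 0.05275 to 0.0805).

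The other lists are set against 8.99% lower and 7.17% higher among all genes. Of 17 citric acid cycle genes 4 were lower (23.5%) and 0 higher, among them KGD1 (-0.66 ± 0.106) and MDH1 (-0.59 ± 0.108), and of 36 nuclear respiratory chain genes 5 were lower (13.9%) and 1 higher. Of 20 phosphate genes 2 were lower and 1 higher. SPL2, an inhibitor of low-affinity phosphate uptake, had a young gap of 2.58 ± 0.161 and an aged gap of 1.43 ± 0.205. Of 22 glycolysis and fermentation genes 5 were lower (22.7%) and 1, TDH1, was higher. Of 45 genes of other amino acid synthesis 4 were lower and 1 higher. Of 19 autophagy genes 4 were lower (21.1%), of 16 proton pump genes 3 (18.8%) and of 10 vacuolar protease genes 3 (30%). Of 15 oxygen-repressed genes 3 were lower (20%) and 3 higher (20%), of 25 ergosterol genes 4 were higher (16%) and of 20 cyclins and inhibitors 3 (15%). No more than 2 members in either direction were called in the lists of iron uptake, arginine, sulfur, cell wall, silencing, gluconeogenesis and pheromone genes, which are short, so that 1 call moves their share widely.

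**Figure D3:**
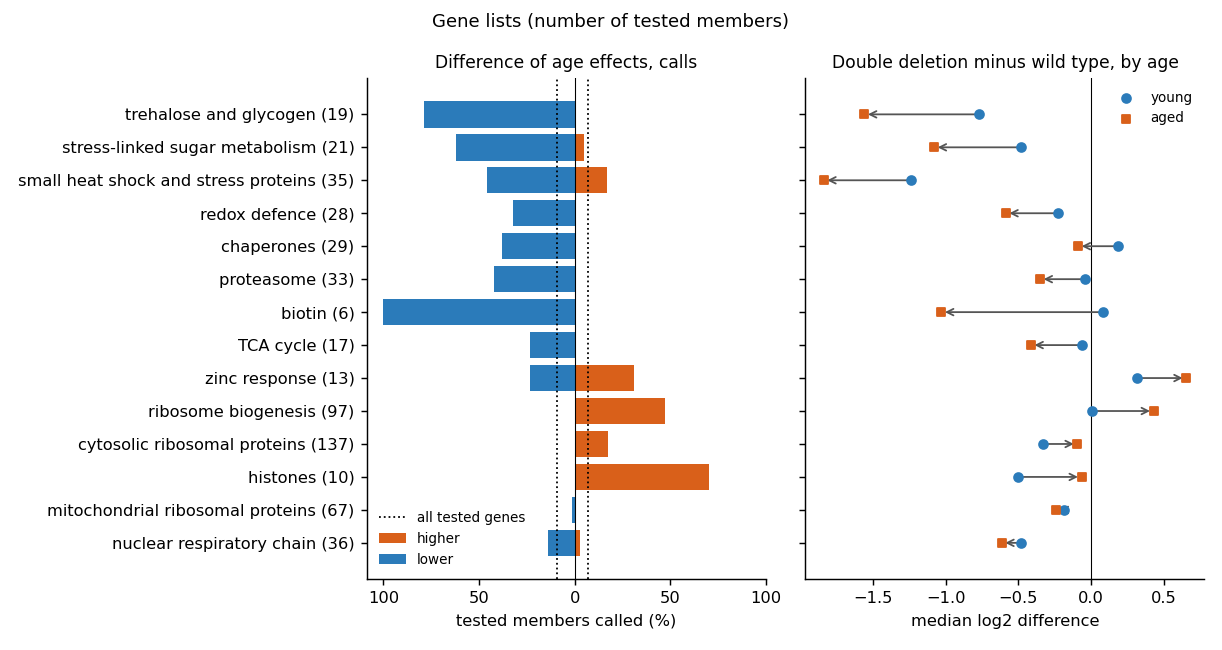
The left panel gives, for 14 gene lists with the number of tested members in brackets, the percentage called lower (blue) or higher (orange) in the difference of age effects, with dotted lines at 8.99% lower and 7.17% higher for all tested genes. The right panel gives the median log2 difference between double deletion and wild type in young cells (blue circles) and aged cells (orange squares). The lists of trehalose and glycogen, sugar metabolism, small heat shock and redox genes start below 0 and move further down. Chaperones start above 0 and end below it. Ribosome biogenesis starts near 0 and moves up, and cytosolic ribosomal protein and histone lists start below 0 and move towards it.

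The promoter windows described above were available for 5916 tested genes, and AGGGG on either strand occurred in 23.0% of them. It occurred in 44.8% of genes called lower and 15.8% of genes called higher. Among genes whose gap widened downwards 75.9% of 112 had it, and among those with a narrowing gap and a higher age effect 73.3% of 15. Genes called lower through the aged level had it in 51.0% of 204, and those called lower through the young level in 24.0% of 179, against 23.0% of all genes. Genes called higher through the aged level had it in 9.13% of 219. Narrowing genes with a lower age effect had it in 5.88% of 17. Of 5 lists searched, trehalose and glycogen genes had it in 84.2%, small heat shock and stress proteins in 82.9%, proteasome genes in 24.2%, cytosolic ribosomal protein genes in 18.2% and ribosome biogenesis genes in 9.28%.

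GATGAG, the core of the PAC element of ribosome biogenesis genes, occurred in 19.6% of all windows, in 40.3% of genes called higher and in 15.1% of genes called lower. It was in 50.7% of genes called higher through the aged level, in 45.3% of those that changed places upwards and in 27.6% of those called higher through the young level. Ribosome biogenesis genes had it in 90.7%. RPC19, called through the young level, has 1 match, 127 bases before its start codon. AGGGAT, the post-diauxic shift element, was in 9.42% of all windows, in 12.7% of genes called lower and in 22.3% of those whose gap widened downwards. GAANNTTC, part of the heat shock element, was in 12.1% of all and 12.5% of genes called lower, and CCAAT, the Hap element, in 43.0% and 45.0%. AGGGG and AGGGAT differ in sequence, and the same letters cannot match both. A match is not evidence of binding, and 2 or more matches of AGGGG were in 3.84% of all windows and 34.8% of genes whose gap widened downwards.

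**Figure D4:**
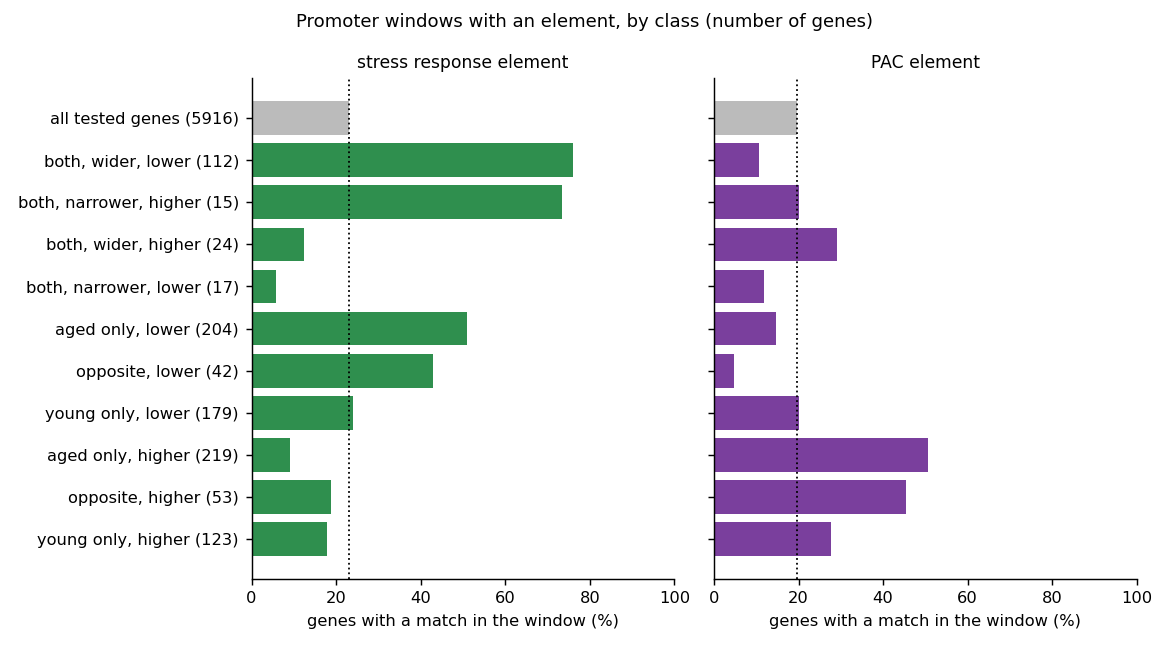
Bars give the percentage of genes with at least 1 match of the stress response element (left) or the PAC element (right) in the 300-base window, for all tested genes with a window (grey) and for each class and direction, with the number of genes in brackets. The dotted lines stand at 23.0% and 19.6%, the values for all genes. Stress response elements are most frequent where a gap widened downwards (75.9%) or narrowed with a higher age effect (73.3%), and lie at 5.88% where it narrowed with a lower one. PAC elements reach 50.7% in genes called higher through the aged level.

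The age effect of the double deletion was also set against that of the msn2 deletion alone (MAT@ msn2::HphNT1, strain CGY61.46, 3 young and 3 aged libraries). This comparison shares the double deletion libraries with the one above, so the values are given side by side only. It called 422 of 6833 genes (6.18%), 117 higher (1.71%) and 305 lower (4.46%). Of small heat shock and stress proteins 17 of 35 were lower, of trehalose and glycogen genes 12 of 19, of redox defence genes 10 of 28 and of biotin genes 5 of 6. Of zinc response genes 8 of 13 were higher, of histones 6 of 10, of ribosome biogenesis genes 7 of 97 and of ribosomal protein genes 4 of 137. Of 29 chaperones 1 was higher and 1 lower, and of 33 proteasome genes 0 were called.

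Single genes against the msn2 deletion follow in the same order as above. HSP26 differed by -1.14 ± 0.156 and GND2 by -1.88 ± 0.199, both lower. EGO4 differed by -1.82 ± 0.257 and GPH1 by -1.85 ± 0.176. VEL1, YOR387C and ZPS1 were higher, at 1.52 ± 0.15, 1.82 ± 0.197 and 1.41 ± 0.172. HSP12 did not pass, at -0.44 ± 0.209 (adjusted p = 0.258), nor did HSP30, at -0.23 ± 0.13 (adjusted p = 0.361), HSP104, at -0.09 ± 0.106 (adjusted p = 0.693), or HUG1, at -0.16 ± 0.259 (adjusted p = 0.789). HXK1 was lower against the msn2 deletion (-1.05 ± 0.26) though higher against wild type.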

How the data were processed

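The authors deposited 1 table of estimated counts per gene for the 18 libraries. PolyA RNA was sequenced in pairs of 150 bases, per the labels' protocols. The submitters' processing notes name bcl2fastq, cutadapt 2.6, STAR 2.7.6a, featureCounts, Subread 1.6.2 and the build R64. Counting options are not given in the sources used here. Of the values above 0, 54.6% were not whole, as when reads are shared between features, and values were rounded to whole numbers here.

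TMM factors and edgeR 4.0.16 quasi-likelihood fits (R 4.3.3) used all 18 libraries, with 1 mean per group and 12 residual degrees of freedom. Of 7118 features, 6833 passed edgeR's filter on low counts and 285 did not. Log2 values stand with standard errors, CPM (counts scaled to library size by the TMM totals) with SD, n = 3. P-values were Benjamini-Hochberg adjusted over all 6833 genes, at 0.05. The fit was also run on simulated counts with the same spread for every gene and changes only in the aged double deletion. That simulation does not show how the fit behaves where many genes change with age or between strains. DESeq2 1.42.0 served as an alternative.

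The 40 lists and the members were chosen with earlier results of these data known. Named genes were the 8 highest and 8 lowest called differences at a mean log2 CPM of at least 3, the 4 at each end of the young, aged, opposite and same-sign classes, up to 4 per list by p, MSN2, MSN4 and 22 fixed genes. ZRC1, ZRT2 and FET4 were named after their values were seen, and 1 gene that met the rule is not reported here. Of the features, 6040 matched the R64 annotation and 1078 did not. Promoter windows were read from the R64 genome of RefSeq, whose promoter table was not used here.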

Additional observations from a re-analysis of the deposited data

Results flagged for a closer look

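The same age contrast was tested in 2 strains, and the test of the difference itself passed for 1104 genes. For 115 of these the age effect passed in both strains with opposite signs. Those among the genes chosen for naming are given here. Each value below is the difference of age effects on the log2 scale with its standard error, from the edgeR fit.

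MSN4 had -0.93 ± 0.155, but it is deleted in the double deletion, and the part of the gene covered by its remaining reads there is not known. EGO4, which rose in wild type and fell in the double deletion, had -2.11 ± 0.255. Among stress and redox genes with the same directions, the values were -1.66 ± 0.224 for GPX1, -1.37 ± 0.23 for TSA2 and -1.53 ± 0.129 for PGM2. Among chaperone and proteasome genes they were -1.14 ± 0.106 for HSP104, -0.94 ± 0.11 for HSP78 and -0.44 ± 0.105 for PRE2. BIO3 had -1.32 ± 0.0961, and the negative regulators of Ras had -0.82 ± 0.113 for IRA2 and -0.62 ± 0.118 for IRA1. For transporters and pumps the values were -0.46 ± 0.118 for FET5, the vacuolar iron oxidase, -0.44 ± 0.113 for PHO86, needed to deliver the phosphate transporter to the membrane, -0.60 ± 0.138 for AUS1, a sterol importer, and -0.57 ± 0.116 for VMA1, a subunit of the vacuolar proton pump. The FET5 and PHO86 calls were lost after thinning to the smallest total (adjusted p = 0.103 and 0.0517).

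Positive values, with a fall in wild type and a rise in the double deletion, were 1.19 ± 0.172 for RPC19, 1.24 ± 0.161 for the overlapping YNL114C, 1.09 ± 0.13 for RPA12, 0.84 ± 0.0892 for UTP30, 0.84 ± 0.101 for DBP8 and 0.82 ± 0.102 for UTP23, of small subunit assembly. The others were 0.65 ± 0.0953 for RAS1, 1.03 ± 0.17 for MIG3 and 1.06 ± 0.184 for ROX1, the repressor of hypoxic genes.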

How the results depend on the processing

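No call among the results named here changed direction. DESeq2 left 54 genes in the class where neither difference passed and called 645 genes against the msn2 deletion. Library totals gave 239 higher and left 12 in the class where neither difference passed, and moved the median of all genes from -0.01 to 0.16 for the young difference and from -0.01 to 0.08 for the aged difference. Thinning every library to the smallest total called 628 genes, 302 higher and 326 lower, with 1695 for the young difference, 215 against the msn2 deletion, and 183, 287, 54 and 82 genes in the young, aged, opposite and same-sign classes. A test against a log2 difference of 0.5 called 118. Classing genes by the share of the difference that lies in young cells put 237 in the opposite and 71 in the same-sign class.

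Leaving out 1 library at a time gave 798 (without young wild-type replicate 3) to 1339 calls (without young double deletion replicate 3), 358 to 620 higher, 440 to 719 lower and 124 to 157 of at least 2-fold. The young difference gave 1996 to 2606 calls, the aged difference 1913 to 2678 and the comparison with the msn2 deletion 300 to 484. The young class held 210 to 401 genes, the aged class 340 to 585, the opposite class 59 to 122, the same-sign class 125 to 182 and the class with neither 13 to 49.

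Of 18 same-number pairs of groups, 6 correlated above 0.1, with a median of 0.08 and a range from -0.33 to 0.29. Libraries of different number were not compared, so these values cannot show whether the replicate numbers pair the samples. With the replicate number as a block 1011 genes were called, of which 992 were among the 1104. The shallow aged double deletion libraries limit the precision of low genes, and each group holds 3 libraries of 1 strain.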

Other observations

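Some smaller groups counted above are described further here, against 8.99% lower and 7.17% higher among all genes. Of 15 oxygen-repressed genes 3 were higher and 3 lower. HEM13, an oxygen-dependent enzyme of haem synthesis, had a difference of age effects of 0.63 ± 0.108 through the aged level, and ROX1, which represses it, of 1.06 ± 0.184 with a change of sign. Of 25 ergosterol genes 4 were higher (16%) and 2 lower (8%). ERG3, a sterol desaturase, was higher at 0.41 ± 0.112 and ECM22, a regulator of sterol genes, was lower at -0.44 ± 0.111. The ERG3 call was lost with library totals (adjusted p = 0.158), after thinning (0.0515) and without young double deletion replicate 2 (0.0552), and the ECM22 call after thinning (0.217). Of 14 arginine genes 2 were higher, ARG3 at 0.62 ± 0.141 and ARG8 at 0.36 ± 0.102, both with a widening gap. The ARG8 call was lost with library totals (adjusted p = 0.157), after thinning (0.226), without young wild-type replicate 3 (0.0582) and without aged double deletion replicate 1 (0.0706).

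Of 19 autophagy genes 4 were lower and 1 higher, and ATG1, the kinase that starts autophagy, went from a young gap of 0.30 ± 0.0955 to an aged gap of -0.60 ± 0.115. Of 10 vacuolar protease genes 3 were lower, among them PAI3, an inhibitor of a vacuolar protease, at -1.46 ± 0.189. The median annotated gene length was 1206 bases over 5949 tested genes, 1096.5 over 444 called higher and 1536 over 573 called lower.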
